A study of Mus musculus with 8 samples.

Results

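In mouse fibroblasts studied with and without TNF, RelA peaks followed each other at short distances along stretches of the genome, and these chains of peaks are described here. Chains were chosen by the measured peak positions alone: autosomal peaks were sorted by their centres, neighbours up to 20 kb apart were joined, and chains of 3 or more peaks were kept. On chromosomes 1 to 19 this gave 285 chains with 972 peaks, which is 10.0% of the 9688 autosomal peaks and 9.89% of the 9829 peaks in all. Their number, spacing and span are therefore a description, with no test.

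The peaks are places where RelA (p65) was found on chromatin by ChIP-seq, the sequencing of DNA pulled down with an antibody, in primary embryonic fibroblasts (MEFs) of wild-type C57BL/6 mice. Cells were starved of serum overnight and had TNF at 10 ng/ml for 0.5 or 3 h or were taken at 0 h, with 2 ChIP libraries per time, beside 2 input DNA libraries, 8 libraries in all. The labels give no embryo number or sex, and no marker of cell type could be checked, because the measurement is binding and not expression. The values are 1 list of peak positions on the mm10 genome for the whole series, with no height, score, time or library attached. The depth behind a peak, the spread between replicates and the time at which a peak was bound are therefore unknown.

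RelA forms dimers with other NF-kB subunits that bind kappaB sites in DNA. In resting cells the I-kappa-B proteins hold these dimers in the cytoplasm. TNF activates the IKK kinases, the I-kappa-B proteins are destroyed and the dimers enter the nucleus, where they bind promoters and distal enhancers of inflammatory genes, including the genes for their own inhibitors. Cross-linking was done with a protein-to-protein linker before formaldehyde, per the labels' protocols, so a peak can also mark RelA held to DNA through another protein.

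The letters of the bound DNA could be shown where a chain peak lay on a gene start. A RefSeq table of GRCm38.p6, the reference assembly also called mm10, gave the 250 bases before gene starts. Among the 13 inflammatory list genes named by rule whose start window lay under a chain peak, 8 held a kappaB consensus match before the start and 5 held none (Bcl3, Icam1, Btg2, Psmb10 and Rela). The lines that follow show 9 of the 10 such genes that come first by the number of peaks in their chain and then by the distance of the peak from the start, with and without a match, so that the letters at the bound starts can be compared. Each line runs 5′ to 3′ on the strand of the gene and ends just before the first base of the gene. Capitals mark every match to the kappaB consensus, a pattern of 10 bases searched on both strands, with overlapping matches run together. The matches printed below fit GGRRNNYYCC, where R is A or G, Y is C or T and N is any base. A looser pattern could match other letters, so a start without a match is so for the pattern used.
Cxcl10: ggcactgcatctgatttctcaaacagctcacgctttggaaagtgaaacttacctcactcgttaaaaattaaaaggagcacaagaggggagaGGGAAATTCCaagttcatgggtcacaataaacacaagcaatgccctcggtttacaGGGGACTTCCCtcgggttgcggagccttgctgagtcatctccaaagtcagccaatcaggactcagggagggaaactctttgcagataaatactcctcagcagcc
Bcl3: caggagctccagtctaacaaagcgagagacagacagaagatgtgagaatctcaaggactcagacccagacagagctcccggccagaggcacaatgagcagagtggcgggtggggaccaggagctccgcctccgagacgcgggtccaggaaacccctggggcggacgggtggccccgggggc
Tnip1: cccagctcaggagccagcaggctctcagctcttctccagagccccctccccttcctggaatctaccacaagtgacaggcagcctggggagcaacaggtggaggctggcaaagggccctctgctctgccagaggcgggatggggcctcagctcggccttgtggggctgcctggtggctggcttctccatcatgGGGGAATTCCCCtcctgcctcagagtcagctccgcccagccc
Icam1: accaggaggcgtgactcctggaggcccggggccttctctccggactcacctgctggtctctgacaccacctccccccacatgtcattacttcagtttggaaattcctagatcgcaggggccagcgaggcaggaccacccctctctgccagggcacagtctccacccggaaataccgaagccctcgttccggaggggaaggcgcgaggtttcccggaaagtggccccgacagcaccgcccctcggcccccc
Btg2: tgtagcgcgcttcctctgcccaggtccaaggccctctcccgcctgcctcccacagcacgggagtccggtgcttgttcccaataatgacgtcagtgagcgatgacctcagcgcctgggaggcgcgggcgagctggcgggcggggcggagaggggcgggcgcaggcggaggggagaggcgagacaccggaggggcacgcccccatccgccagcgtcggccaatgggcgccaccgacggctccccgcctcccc
Csf1: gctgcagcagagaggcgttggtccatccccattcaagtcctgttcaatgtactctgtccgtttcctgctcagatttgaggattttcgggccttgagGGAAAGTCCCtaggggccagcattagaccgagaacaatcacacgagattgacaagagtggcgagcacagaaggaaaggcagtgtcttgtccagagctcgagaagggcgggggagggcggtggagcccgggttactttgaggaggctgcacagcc
Nfkbie: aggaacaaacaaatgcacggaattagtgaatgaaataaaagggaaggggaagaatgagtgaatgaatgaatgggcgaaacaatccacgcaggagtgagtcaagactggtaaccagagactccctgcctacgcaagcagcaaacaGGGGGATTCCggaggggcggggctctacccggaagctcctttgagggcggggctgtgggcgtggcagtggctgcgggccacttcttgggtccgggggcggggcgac
Sdc4: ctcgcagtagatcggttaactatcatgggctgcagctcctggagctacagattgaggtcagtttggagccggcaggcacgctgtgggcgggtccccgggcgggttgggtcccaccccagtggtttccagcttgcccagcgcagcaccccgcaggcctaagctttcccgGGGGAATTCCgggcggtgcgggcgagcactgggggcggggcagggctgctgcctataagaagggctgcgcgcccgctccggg
Nfkbia: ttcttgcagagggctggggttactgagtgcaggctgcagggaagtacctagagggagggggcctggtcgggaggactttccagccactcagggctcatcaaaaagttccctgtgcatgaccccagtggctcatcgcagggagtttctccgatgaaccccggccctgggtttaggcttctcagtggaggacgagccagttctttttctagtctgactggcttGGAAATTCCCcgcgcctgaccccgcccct

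These stretches lie at chr5:92348890-92349139 (minus strand) for Cxcl10, chr11:54962957-54963190 (minus) for Tnip1, chr3:107760470-107760719 (minus) for Csf1 and chr17:45555450-45555699 (plus) for Nfkbie. Those of Sdc4, Nfkbia and Icam1 lie at chr2:164443189-164443438 (minus), chr12:55492648-55492897 (minus) and chr9:21015690-21015939 (plus), and those of Bcl3 and Btg2 at chr7:19822825-19823005 (minus) and chr1:134079156-134079405 (minus). Cxcl10 held 3 matches, GGGAAATTCC from 159 to 150 bases before the start and the overlapping pair GGGGACTTCC and GGGACTTCCC from 104 to 94 bases before it. Tnip1 held 3 overlapping matches from 58 to 47 bases before the RefSeq start used, and GGGGAATTCC is 1 of them. The last 16 bases before that start lie inside the annotated gene and are left off its line, as are 69 bases for Bcl3. Tnfaip2, which held 1 match, is not printed because 211 of the 250 bases lie inside the annotated gene. Sdc4 held the same 10 letters from 82 to 73 bases before its start. Nfkbie had GGGGGATTCC at 106 to 97 bases, Csf1 had GGAAAGTCCC at 154 to 145 bases and Nfkbia had GGAAATTCCC at 29 to 20 bases. Bcl3, Icam1 and Btg2 held no match in the windows shown, which says only that these letters are not in them.

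Across all chains, 88 genes, noncoding ones included, had a start window of 300 bases under a chain peak. A kappaB consensus match in the 250 bases before a start was present in 38 of them (43.2%, Wilson 95% interval 33.3 to 53.6%). The share was 280 of 1085 genes (25.8%, 23.3 to 28.5%) under autosomal peaks outside the chains and 8.35% of all 25748 autosomal genes with a start window. The AP-1 pattern TGANTCA, the site of Fos and Jun dimers, was present in 13 of the 88 genes (14.8%, 8.84 to 23.7%), in 5.53% of genes under other peaks and in 7.88% of all genes with a start window. Matches were counted by gene, and a gene with several starts may hold its match before any of them. The intervals cover counting error only, and neighbouring genes that share a peak are not independent. A match describes the letters in the window and is not evidence of a bound site.

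Most chains were short in number and moderate in length. There were 197 chains of 3 peaks, 67 of 4, 15 of 5, 4 of 6 and 2 of 7. Their spans, from the start of the first peak to the end of the last, ran from 2.9 to 66.6 kb with a median of 23.6 kb and quartiles of 18.8 and 30.5 kb. The median span was 21 kb for chains of 3, 31.5 kb for chains of 4 and 36.4 kb for chains of 5 or more. Together the chains spanned 7.22 Mb, and peaks covered a median of 9.7% of a span (range 4.98 to 62.2%).

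**Figure D1:**
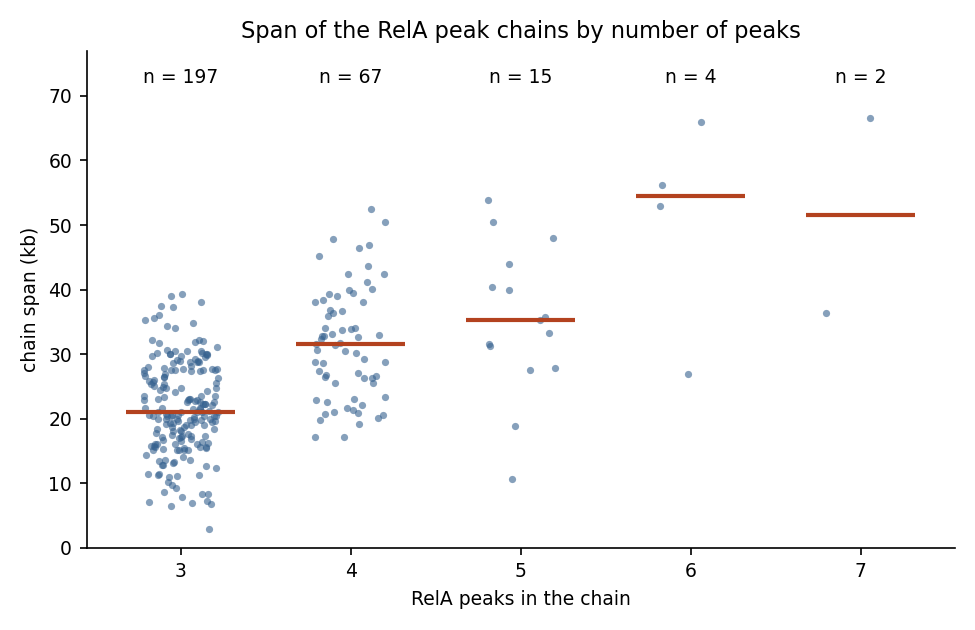
Span in kb (y axis) of each of the 285 chains by its number of RelA peaks (x axis), with points spread sideways for visibility and a red line at the median of each size. Medians rise with the number of peaks from 3 to 5 or more (21, 31.5 and 36.4 kb), sizes overlap, and the 2 chains of 7 peaks span 36.4 and 66.6 kb.

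Within chains, the 687 distances between neighbouring centres had a median of 10.2 kb, with quartiles of 5.86 and 14.6 kb, and the shortest was 0.695 kb. Distances under 5 kb made up 19.5% of them and those of 15 kb or more made up 23%. In 49 chains no distance exceeded 10 kb. At the threshold, the largest joined distance was 19.98 kb and the smallest one left unjoined between any neighbouring peaks was 20.05 kb. In 29 chains, with 108 peaks, the largest distance was over 19 kb. Joining up to 21 kb would give 302 chains with 1028 peaks, and joining up to 19 kb would give 264 chains with 894 peaks. Outside the chains, 976 pairs held 1952 peaks (20.1%) and 6764 peaks (69.8%) had no neighbour within 20 kb.

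Chain peaks and other peaks had nearly the same median width. It was 682 bp (quartiles 578 and 819 bp) in chains, against 688 bp (588 and 817 bp) for the 8716 other autosomal peaks. Peaks of 1100 bp or more made up 6.17% of chain peaks (Wilson 95% interval 4.83 to 7.87%) and 4.96% of the others (4.52 to 5.43%). In chains of 5 or more the median width was 654 bp. Chain peaks on a start window were wider, with a median of 811 bp in 87 peaks, as were the 944 other peaks on a start window, with a median of 795 bp. Of the 49 chains with exactly 1 peak within 1 kb of a protein-coding gene end, that peak was the widest of its chain in 14. All 14 were among the 36 such chains of 3 peaks, and it was the widest in none of 9 chains of 4, 3 chains of 5 and 1 chain of 7. If width were unrelated to position, the peak at the end would be the widest in 1 of 3 chains of 3 peaks. That share is lower in longer chains, so these counts are a description and no pattern is read from them.

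A smaller share of chain peaks than of single peaks lay outside protein-coding genes and more than 100 kb from the nearest end of one. It was 9.57% of chain peaks (7.87 to 11.6%), 12.2% of peaks in pairs (10.8 to 13.7%) and 17.5% of single peaks (16.6 to 18.5%), against 15.7% of all autosomal peaks. Inside a protein-coding gene and more than 100 kb from its ends lay another 2.78% of chain peaks (1.92 to 4.01%) and 6.93% of single peaks (6.35 to 7.56%), against 6.42% of all autosomal peaks. The share at gene ends was no higher in chains. Within 1 kb of a protein-coding gene end lay 99 of 972 chain peaks (10.2%, 8.44 to 12.2%), against 12.6% of all autosomal peaks and 13.6% of single peaks. A start window was overlapped by 8.95% of chain peaks (7.31 to 10.9%), against 10.6% of all autosomal peaks. Gene interiors more than 1 kb from the ends held 38.8% of chain peaks (35.8 to 41.9%) and 40.7% of all autosomal peaks. Peaks of a chain share a locus, so these shares are given without a test.

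**Figure D2:**
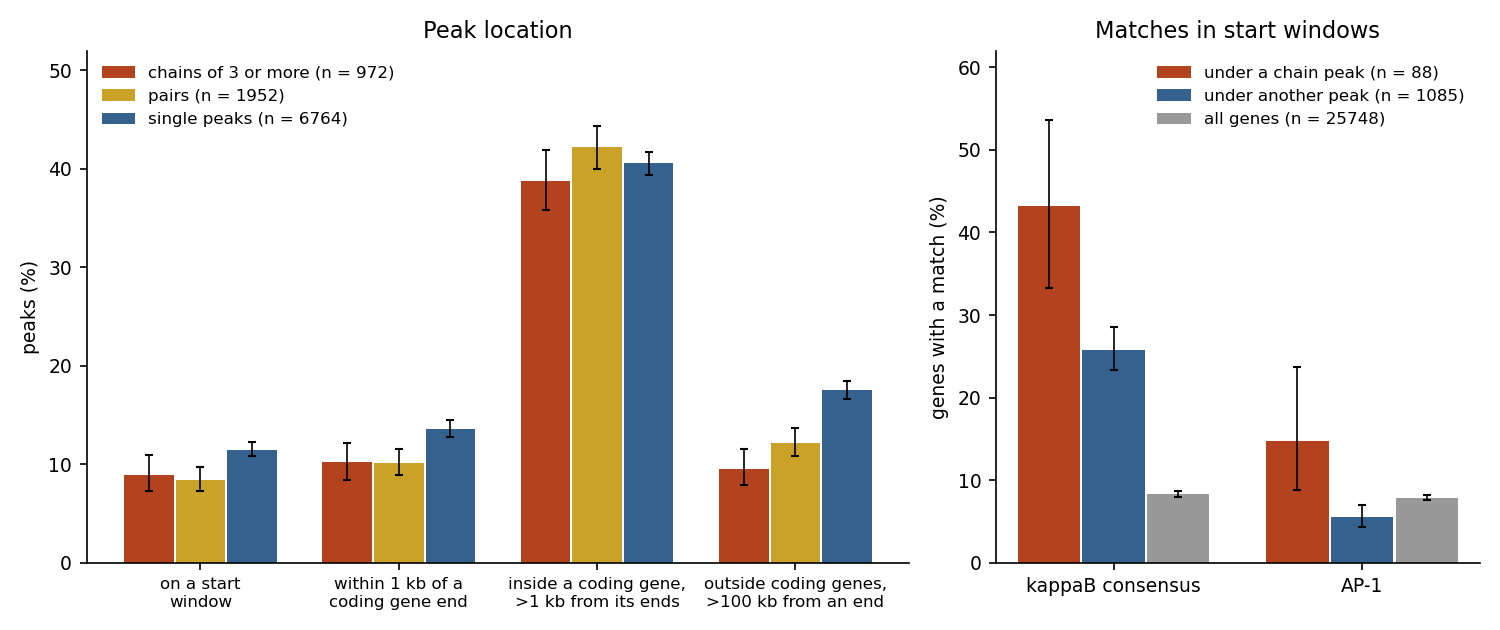
Left, percent of peaks (y axis) at each location for chains of 3 or more, pairs and single peaks. Right, percent of genes with a kappaB consensus or AP-1 match before a start. Shown are genes with a start under a chain peak, genes with one under another peak and all genes. Bars are shares and error bars Wilson 95% intervals: the class over 100 kb outside coding genes falls from 17.5% of single peaks to 9.57% of chain peaks, and kappaB matches stand at 43.2, 25.8 and 8.35%.

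The 285 chains fell into 4 settings. In 79 chains (27.7%) every peak lay inside the span of a single protein-coding gene, with a median gene length of 150 kb, and 58 of these genes were 100 kb or longer. A further 102 chains (35.8%) overlapped a protein-coding gene without lying wholly inside it, and 23 (8.07%) had a gene within 10 kb but overlapped none. The remaining 81 chains (28.4%) had no protein-coding gene within 10 kb. At least 1 peak lay on a start window in 68 chains (23.9%), and 2 or more did in 17. A single protein-coding gene stood within 10 kb of 140 chains, 2 genes of 41 chains and 3 or more of 23 chains, with a maximum of 8.

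In all, 313 protein-coding genes overlapped a chain or lay within 10 kb of one, which is 1.52% of the 20558 autosomal protein-coding genes, and 237 of them (1.15% of all) overlapped a span. These genes had a median length of 26.2 kb. The median was 39.4 kb for genes with a peak in the body or within 10 kb but no chain, and 17.6 kb for all genes. Since a gene without peaks cannot have a chain, a second comparison is with the 4949 genes that had a peak in the body or within 10 kb, of which 6.32% were at a chain. Of 198 genes on 11 lists of NF-kB, TNF and inflammatory genes, 30 (15.2%, Wilson 95% interval 10.8 to 20.8%) were at a chain, or 23.3% of the 129 with a peak. They lay at 28 different chains, so most of the 285 chains had none of these genes within 10 kb. The lists were chosen with earlier results of these data known, so these shares are a description.

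**Figure D3:**
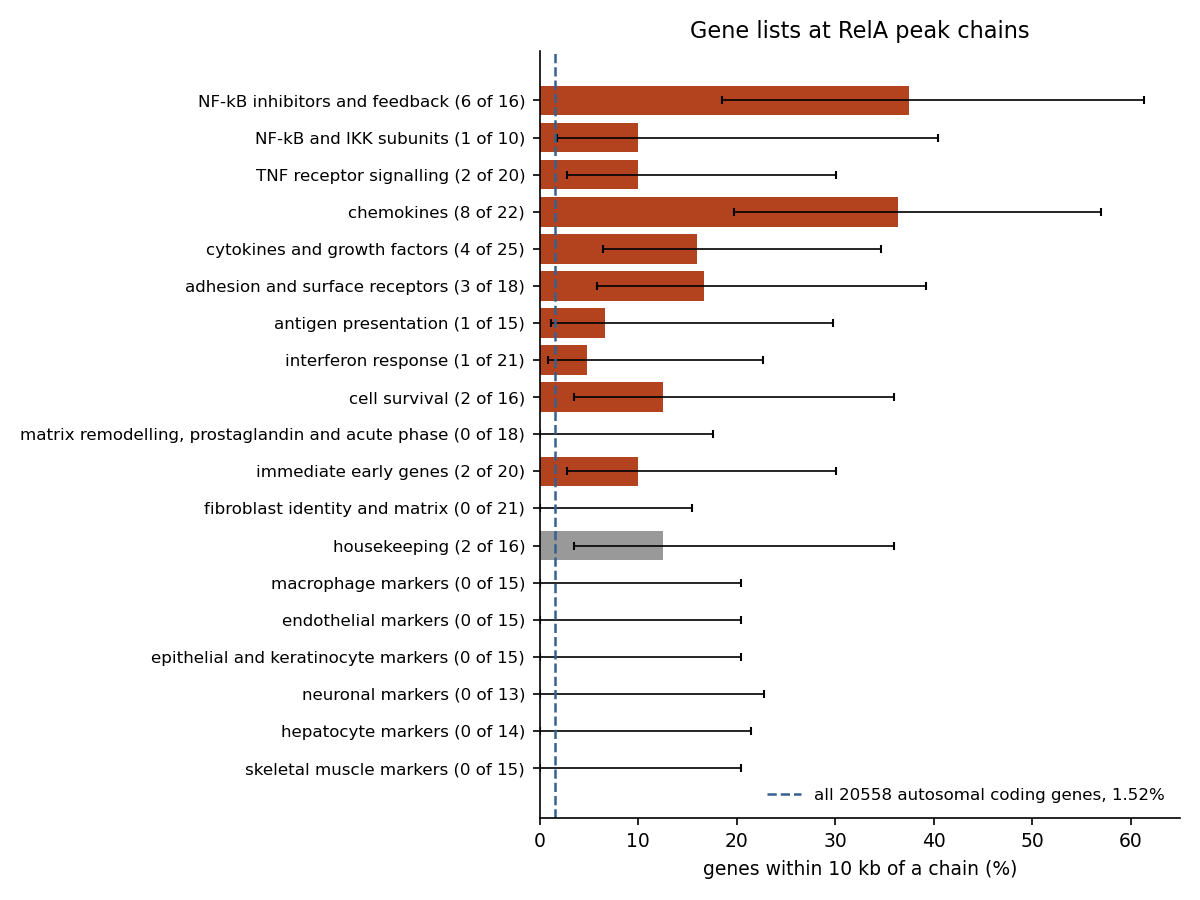
Percent of the genes of each list within 10 kb of a chain (x axis), with the count in brackets, Wilson 95% intervals as error bars and the share of all autosomal protein-coding genes (1.52%) as a dashed line. Red bars are NF-kB, TNF and inflammatory lists and grey is used for the other lists; inhibitors (37.5%) and chemokines (36.4%) have the highest shares, and 8 lists are at 0.

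NF-kB inhibitors and feedback genes had the highest share of the lists. Of these genes, 6 of 16 (37.5%, 18.5 to 61.4%) were at a chain, or 42.9% of the 14 with a peak. In the positions that follow, negative values lie before the outermost gene start and positive ones after it, in kb to the peak centre. Nfkbia encodes I-kappa-B-alpha, the inhibitor that RelA itself induces, and had 3 peaks at -6.49, -0.19 and 0.83 kb. Nfkbie encodes I-kappa-B-epsilon and had peaks at -0.08, 2.17 and 8.48 kb, the last beyond the gene and on a start window of its neighbour Slc35b2. Bcl3 encodes a nuclear I-kappa-B protein and had 5 peaks, at -22.04, -4.28, -1.52, 0.02 and 5.16 kb.

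Tnip1 encodes a partner of the ubiquitin-editing enzyme A20, and its 5 peaks lay at -9.31, -0.13, 1.12, 6.88 and 8.74 kb. Zc3h12a encodes an RNase that degrades inflammatory mRNAs. Its 3 peaks lay inside the gene at 2.98, 4.46 and 5.25 kb and formed the shortest chain of all, 2.9 kb from chr4:125122319 to 125125223. Tnfaip2, a TNF-induced gene, had 4 peaks at -25.03, -12.18, -7.55 and -0.4 kb, with widths of 570, 1915, 507 and 1261 bp, all before or at the start. The peak at -25.03 kb overlapped a start window of the neighbouring gene Exoc3l4. In these 6 genes the start carried a peak in all but Zc3h12a.

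Of the genes for NF-kB and IKK subunits, Rela was at a chain, 1 of 10 (10.0%, 1.79 to 40.4%). That is 11.1% of the 9 with a peak, against 6.32% of all autosomal protein-coding genes with a peak. The 1521 bp peak of Rela lay at -0.3 kb, and the other 2 at 11.46 and 25.84 kb were beyond the gene. The peak at 25.84 kb overlapped a start window of the neighbouring gene Sipa1. Among TNF receptor signalling genes, 2 of 20 (10.0%) were at a chain, or 14.3% of the 14 with a peak. Tnfrsf1b, which encodes TNF receptor 2, had 4 peaks before its start, from -30.18 to -7.79 kb. Of these 4 peaks, 3 lay inside the neighbouring gene Tnfrsf8, the CD30 gene, and the chain did not overlap Tnfrsf1b. Traf5, an adaptor gene of TNF family receptors, had 3 peaks inside the gene at 20.01, 21.97 and 30.76 kb.

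Chemokine genes, whose products attract leukocytes, were at chains in 8 of 22 cases (36.4%, 19.7 to 57.0%), or 66.7% of the 12 with a peak, and they shared 6 chains. Ccl2 attracts monocytes and had 6 peaks at lower coordinates than the gene, chr11:82006620 to 82033618. Their centres lay 2.43, 7.25, 16.1, 19.2, 23.7 and 28.6 kb from the nearer gene end, and none was on the gene. Cxcl9 and Cxcl10, which attract activated T cells, shared a chain of 6 peaks over 56.1 kb. From the start of Cxcl10 those peaks lay at -28.3, -14.48, -4.88, -0.15, 16.31 and 26.99 kb, and the last lay inside Cxcl9. The peak at -14.48 kb overlapped an end of Cxcl11, which is annotated as a transcribed pseudogene. Cxcl10 lies within the span of Art3, an ADP-ribosyltransferase family gene, and 5 of the 6 peaks were inside Art3.

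The neutrophil attractant genes Cxcl1 and Cxcl2 shared 3 wide peaks of 1054, 1120 and 1032 bp (chr5:90875910 to 90904033). The second lay at -0.24 kb from Cxcl1, the third at -0.38 kb from Cxcl2, and the first at -14.81 kb from Cxcl1. Ccl20 had peaks at -16.84, -14.68 and -0.03 kb. Ccl5 had 4 peaks of 372 to 942 bp that began 0.145 kb from the gene end and reached 20 kb away. The chains at Cxcl1, Cxcl2, Cxcl10 and Ccl20 thus had a peak at each of these starts, and that at Ccl2 had none at the gene. Cxcl1, Cxcl2, Ccl5 and Ccl20 are outside the naming rule and were chosen after their values were seen.

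Cytokine and growth factor genes were at chains in 4 of 25 cases (16.0%, 6.4 to 34.7%), or 30.8% of the 13 with a peak. Il34, a ligand of the macrophage colony-stimulating factor receptor, had a chain of 7 peaks (chr8:110773985 to 110810403, 36.4 kb), of which 5 lay inside the gene and 2 between it and the splicing factor gene Sf3b3. Those 7 peaks were 530 to 913 bp wide. Csf1 encodes the main ligand of the same receptor and had 4 peaks, at -33.12, -15.67, 0.07 and 16.66 kb. Lif, a cytokine of the interleukin-6 family, had 5 peaks, all beyond its end, at 19.03, 34.23, 35.28, 42.28 and 51.16 kb from the start. The farther 2 peaks of Lif, 1171 and 1422 bp, were wider than the nearer 3, at 728, 531 and 559 bp. Csf2, a granulocyte and macrophage growth factor gene chosen only after the values were known, had peaks at -2.32, 12.66, 25.26 and 35.0 kb.

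**Figure D4:**
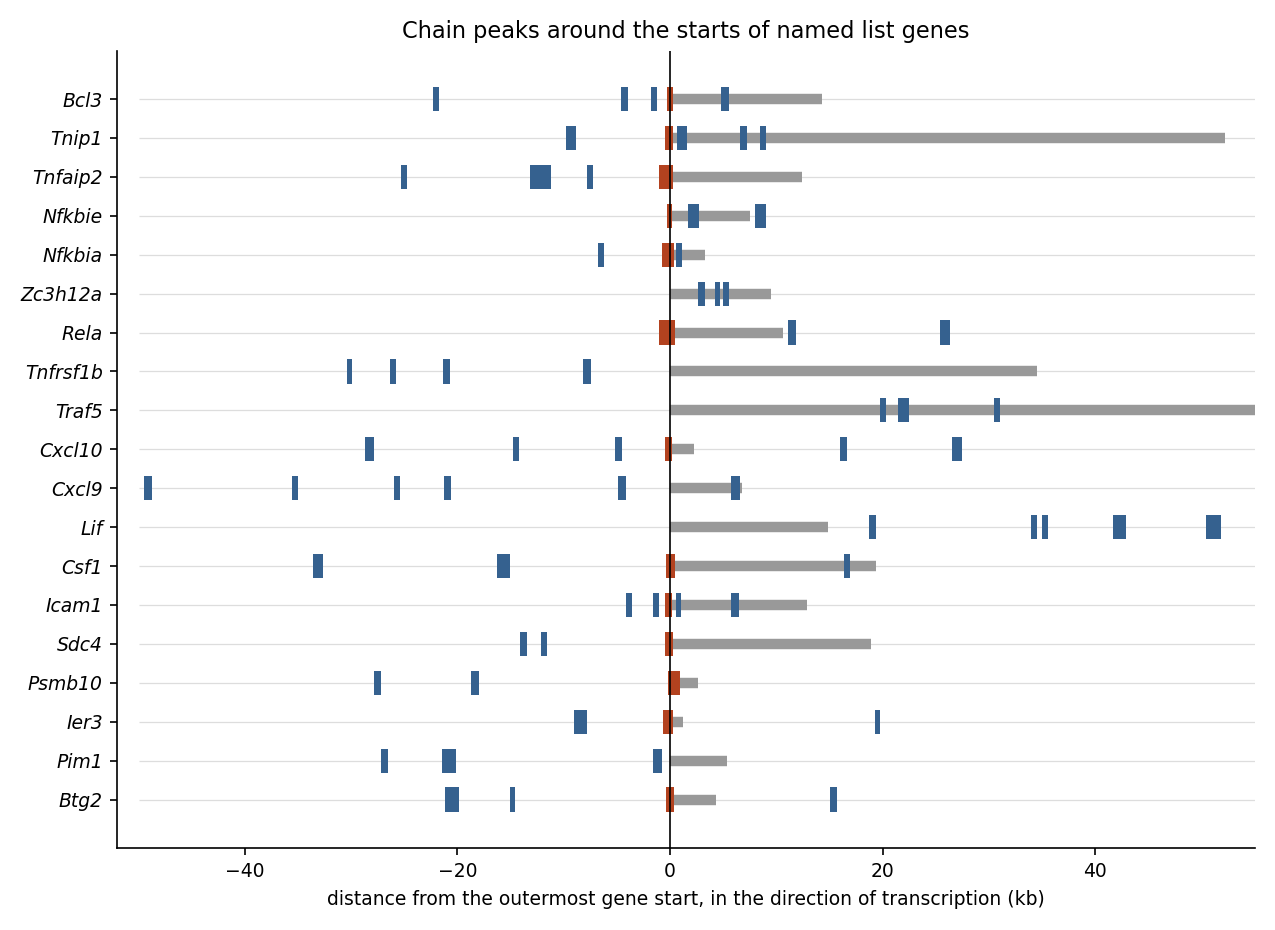
Peaks of each chain (blocks, drawn at their width or at 0.5 kb if narrower) around the start of 19 named list genes, on an x axis of kb from the outermost gene start in the direction of transcription; grey bars are gene bodies, drawn up to 55 kb. Red blocks overlap a start window of the gene drawn, as for 13 of the 19 genes. Blue blocks do not, though some overlap a start window of a neighbouring gene. Tnfrsf1b peaks lie before the start and Lif peaks beyond the gene.

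Adhesion and surface receptor genes were at chains in 3 of 18 cases (16.7%, 5.84 to 39.2%), or 25% of the 12 with a peak. Icam1, the ligand of leukocyte integrins, had 5 peaks in 10.6 kb, at -3.85, -1.33, -0.15, 0.82 and 6.13 kb, the second densest chain with 4.7 peaks per 10 kb. Vcam1 binds another leukocyte integrin and had 3 peaks of 1090, 709 and 820 bp, 2 inside the gene and 1 centred 8.66 kb beyond an end. Sdc4, a heparan sulfate proteoglycan gene, had peaks at -13.76, -11.87 and -0.1 kb, and the farther pair lay nearest to the ends of the gene Sys1. All 3 genes had a peak centred within 0.2 kb of a gene end, at 0.15, 0.105 and 0.102 kb.

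The other inflammatory lists had few genes at chains. Of 15 antigen presentation genes, 1 was at a chain (6.67%, 1.19 to 29.8%), or 8.33% of the 12 with a peak. Over all autosomal protein-coding genes with a peak, the share was 6.32%. The gene was Psmb10, which encodes a catalytic subunit of the immunoproteasome and had peaks at -27.52, -18.38 and 0.36 kb. The peak at -27.52 kb overlapped a start window of Slc12a4. Cell survival genes gave 2 of 16 (12.5%), or 14.3% of the 14 with a peak. These 2 were Ier3 with peaks at -8.45, -0.24 and 19.52 kb and Pim1, a kinase gene, with peaks at -26.87, -20.84 and -1.18 kb. The Ier3 peak at 19.52 kb overlapped a start window of Mdc1.

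Immediate early genes gave 2 of 20 (10.0%), or 20% of the 10 with a peak. These 2 were Btg2 with 4 peaks at -20.51, -14.84, -0.02 and 15.4 kb and Ier2 with 3 peaks in 6.96 kb. No gene of 18 on the matrix remodelling, prostaglandin and acute phase list was at a chain (Wilson 95% interval 0 to 17.6%), and 11 had a peak. The same held for 21 fibroblast identity and matrix genes (0 to 15.5%), of which 10 had a peak. Housekeeping genes gave 2 of 16 (12.5%, 3.5 to 36.0%), a share no lower than that of several inflammatory lists. They were Eef1a1, a translation elongation factor gene with 4 peaks from -45.9 to -7.18 kb, and Tubb5, a tubulin gene in the chain of Ier3. Of the 7 housekeeping genes with a peak, 28.6% were at a chain. For the 129 inflammatory list genes with a peak the share was 23.3%, so housekeeping genes were no lower on this measure. None of 87 markers of macrophages, endothelium, epithelium, neurons, hepatocytes and skeletal muscle was at a chain (0 to 4.23%), and 22 of them had a peak. Over all autosomal protein-coding genes the share was 1.52%, or 6.32% of those with a peak. The intervals of the lists with no gene at a chain include 1.52%, so these lists are too small to show a lower share.

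Chains with many peaks also stood at genes outside these lists. Cd47 encodes a surface protein that restrains engulfment by macrophages, and its chain of 6 peaks (chr16:49905325 to 49971342) began inside the gene at 50.02 kb and ran on to 115.12 kb, 5 of the peaks beyond the gene. Lhfpl2, a tetraspan membrane protein gene, held 6 peaks over 52.9 kb, all inside it. Parva, which encodes the focal adhesion protein alpha-parvin, and Psd3, an exchange factor gene for ARF6, each held 5 peaks inside, over 35.2 and 44.0 kb. Pdpn, the podoplanin gene of fibroblasts and lymphatic cells, held 4 peaks at 2.42, 4.86, 10.65 and 20.92 kb.

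On chromosome 18, Smad7, an inhibitor gene of TGF-beta signalling, and Ctif, a translation initiation factor gene, had neighbouring chains of 5 peaks each, 49.2 kb apart. Together they held 10 peaks in 117 kb. Among the densest chains were those of Zc3h12a (10.3 peaks per 10 kb), Icam1 (4.7), the forkhead gene Foxp4 (4.37) and Ier2 (4.31). The remaining chain of the densest 5, with 4.59 peaks per 10 kb on chromosome 10, had no protein-coding gene within 10 kb and lay 25.7 kb from Gatd3a and 50.3 kb from Icosl, the gene for a T cell costimulatory ligand.

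Chains without a protein-coding gene within 10 kb had a median of 60.2 kb to the nearest one, and 25 of the 81 lay more than 100 kb away, at most 546 kb. The longest chain of all, 66.6 kb with 7 peaks on chromosome 7 (110655075 to 110721660), lay 25.3 kb from Adm, the gene for the vasodilator peptide adrenomedullin, and 46.1 kb from Ampd3, an AMP deaminase gene. A chain of 5 peaks lay 15.3 kb from the proteasome gene Psma6 and 24.0 kb from Nfkbia. Another 5 lay 52 kb from Cebpb, the gene for an inflammatory transcription factor, and 153 kb from the phosphatase gene Ptpn1. A chain of 5 between Tnfaip3, the A20 gene, and Olig3 lay 137 kb from Tnfaip3, and 5 peaks lay 19.1 kb from Cyp1b1 and 66.2 kb from Atl2. For 6 of the 81 chains (7.41%) the next protein-coding gene on a side was on 1 of the 11 inflammatory lists. Counted by gene, since each chain has a next gene on either side, these were 5 of 151 next genes (3.31%), against 0.963% of all autosomal protein-coding genes. These next genes were Tnfaip3 (2 chains), Irf1 (18.3 kb), Nfkbia, Vegfa (41.1 kb) and Fas (96.0 kb), of which Irf1, Vegfa and Fas were chosen with their values known.

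In 9 places chains followed each other within 100 kb. On chromosome 12, 3 chains with 11 peaks stood between positions 55321557 and 55499378, over 178 kb, and held 3, 5 and 3 peaks. Only the last of them was at Nfkbia. The first lay inside the gene Prorp, and the second lay 24.0 kb from Nfkbia with no protein-coding gene within 10 kb. Between Tnfaip3 and Olig3, 2 chains of 3 and 5 peaks stood 25.3 kb apart, the closest of all. The chain at Ccl20 followed another of 3 peaks after 78.5 kb, and that at Btg2 followed another of 4 peaks after 84.3 kb. Atp8b4, a lipid flippase gene, was the only protein-coding gene at more than 1 chain, with 4 peaks in each of 2.

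Noncoding genes at chains included 203 lncRNA genes and 23 microRNA genes, which is 2.02% of the 1136 autosomal microRNA genes. Of the 81 chains without a protein-coding gene, 60 had a noncoding gene within 10 kb. No share over all autosomal lncRNA genes and no such count for other peaks is given here, so these counts are a description. The following microRNAs are shown because several of their genes lie together at chains of 3 peaks on chromosomes 9, 17 and 11, and they were chosen after their values were seen. Sequences are mature strands from RefSeq GRCm38.p6, 5′ to 3′, with the seed (bases 2 to 8), which pairs with target mRNAs, in capitals.
miR-100-5p: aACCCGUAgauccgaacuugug
miR-99b-5p: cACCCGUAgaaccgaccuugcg
let-7e-5p: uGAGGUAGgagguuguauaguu
miR-125a-5p: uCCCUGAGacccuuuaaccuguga
miR-193a-3p: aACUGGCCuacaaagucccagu
miR-365-3p: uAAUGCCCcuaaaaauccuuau

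The first pair shares the seed ACCCGUA, and the other 4 each have a seed of their own among those shown. Mir100 lay inside a chain on chromosome 9 (41515094 to 41533769) and Mirlet7a-2 lay 2.95 kb beyond it. On chromosome 17, Mir99b, Mirlet7e and Mir125a lay 7.24, 7.05 and 6.61 kb from a chain that also overlapped Has1, the gene for a hyaluronan synthase. On chromosome 11, Mir193a and Mir365-2 both lay inside a chain of 3 peaks of 784, 780 and 805 bp. None of the 3 peaks on chromosome 9 or on chromosome 11 was inside a protein-coding gene.

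Strand could be read for 254 combinations of a protein-coding gene and a chain. All peaks of the chain lay before the gene start in 47 of them (18.5%), all inside the gene in 59 (23.2%) and all beyond its end in 33 (13.0%). Peaks lay on both sides of the start in 91 (35.8%), and inside and beyond but not before it in 24 (9.45%). Of the 864 pairs of a gene and a peak, 328 peaks lay before the start, 312 inside and 224 beyond the end. A peak of the chain overlapped a start window of 66 protein-coding genes. As given above, 8.95% of chain peaks overlapped a start window of any gene, against 10.6% of all autosomal peaks. The other counts of this paragraph were not made for peaks outside chains. Whether the arrangement is particular to chains is therefore unknown.

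The share of peaks in chains varied among chromosomes. It was lowest on chromosome 14, where 12 of 347 peaks (3.46%, Wilson 95% interval 1.99 to 5.95%) stood in 4 chains, and highest on chromosome 7, with 68 of 555 (12.3%, 9.78 to 15.2%) in 19 chains. Chromosome 2 had the most chains, 27 with 90 peaks (11.8%). Chromosomes 19 (6.56%), 6 (7.03%) and 3 (7.64%) were also low. The density of peaks on each chromosome was not taken into account, and these shares are a description.

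**Figure D5:**
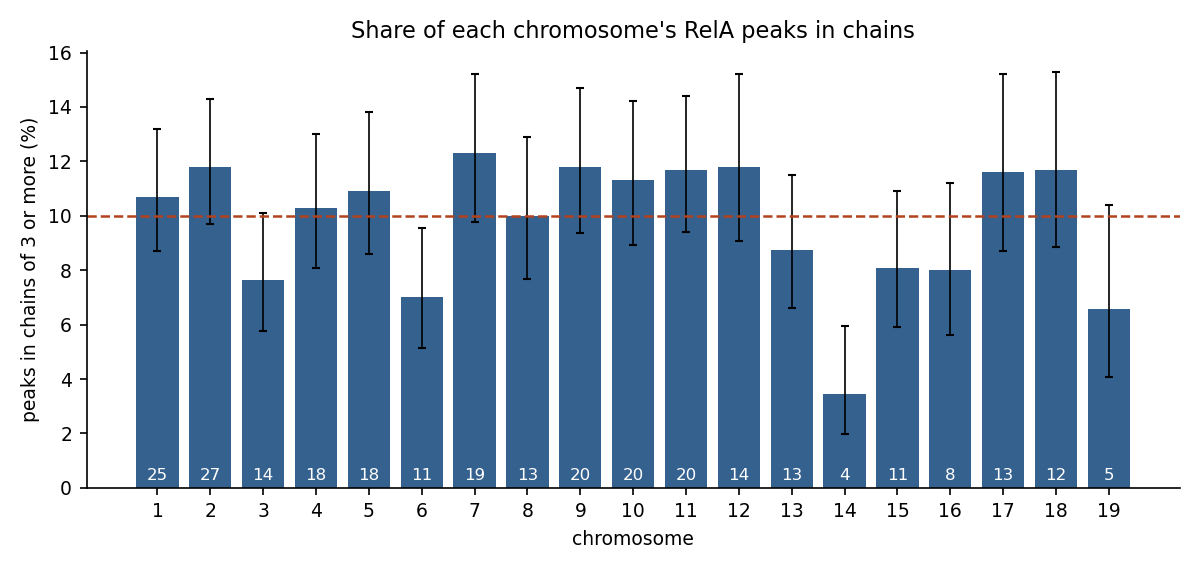
Percent of each autosome's RelA peaks that stand in chains of 3 or more (y axis) by chromosome (x axis), with Wilson 95% intervals as error bars, the number of chains in white and the share over all autosomes (10.0%) as a dashed line. Chromosome 14 is lowest at 3.46% and its interval ends below the line.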

How the data were processed

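RelA ChIP-seq was made in primary mouse fibroblasts at 0, 0.5 and 3 h of TNF, with input DNA. The submitters' processing notes name MACS2, deepTools, Picard 1.13, SAMtools, Bowtie2 2.3, cutadapt 1.9.1 and the mm10 build. What each tool did, the peak threshold, the use of input and any pooling of libraries were not given in the sources used here. Values deposited by the authors are peak starts and ends in bp, with no per-sample column, so depth is unknown and libraries were not compared.

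Peak starts were counted from 1. Genes came from a RefSeq table of GRCm38.p6 (46709 autosomal genes; 333 on scaffolds left out). Starts, strand and sequences came from RefSeq for 16457 of 20558 protein-coding genes, and chromosome 18 starts were not used here. Chains joined autosomal peak centres up to 20 kb apart. A gene was at a chain if its body overlapped the span widened by 10 kb. Of 19 gene lists, 10 symbols matched no autosomal protein-coding gene. No genome sequence was used here, so motifs were searched before gene starts only. Chain building was tested on simulated data. Python 3.11.15, pandas 2.3.3 and statsmodels 0.14.6 were used.

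Named were the 10 chains with most peaks, the 5 densest, the 5 largest inside a gene and without one, all inhibitor and subunit genes at chains and, in each other list, the 3 genes with the largest chains. Any other gene was chosen with its values known. Promoter sequence inside a gene was not printed. The members, lists and rules were chosen with earlier results of these data known. Alternatives are given in the closing section. Some results for single genes are not reported here.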

Additional observations from a re-analysis of the deposited data

How the results depend on the processing

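No test was run, so the alternatives change values and not calls. No paired analysis was possible because the peak list holds no value per sample. Of 56 alternative values, 25 stayed within 1.5 times the main count or within the interval of the main share or median, and 31 did not. With centres joined up to 10 kb there were 79 chains with 255 peaks, 77 protein-coding genes, 14 inflammatory list genes and 43.5% of peaks inside genes; up to 50 kb there were 750 chains with 2849 peaks, 1087 genes and 71 list genes. Chains of 4 or more gave 88 chains, 381 peaks, 104 genes, 14 list genes and 8.14% of peaks within 1 kb of a coding gene end; chains of 5 or more gave 21, 113, 27, 8 and 7.96%, with a median width of 654 bp. With peaks of median width or wider alone there were 54 chains, 169 peaks of 834 bp median, 74 genes and 11 list genes, with 14.2% of peaks at gene ends and 30.8% inside genes. The share at gene ends was 23% within 5 kb and 15.6% for genes of any kind, and 49.2% of peaks lay inside genes of any kind. With 50 kb beside the span, 611 genes were at a chain. In each of these settings the share of list genes exceeded that of all genes, for example 7.07% against 0.375% at 10 kb and 35.9% against 5.29% at 50 kb. The settings reuse the same lists and peaks, and the lists were chosen with earlier results of these data known. They are therefore not independent support.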

Other observations

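Gene families outside the fixed lists were looked at after the genes at chains had been seen, so their counts are descriptions. Of the 12 annexin genes, which encode calcium-dependent membrane-binding proteins, 4 (33.3%) were at 4 different chains: Anxa2 and Anxa5, overlapped by chains of 3 and 4 peaks, Anxa13, overlapped by 3, and Anxa6, 6.21 kb from the chain of Tnip1. The metallothionein genes Mt1 and Mt2, whose products bind zinc and other metals, shared 3 peaks in 8.3 kb, with peak centres 0.1 kb from the start of Mt1 and 0.032 kb from that of Mt2. Alpk1 and Tifa, neighbours that encode a kinase and its adaptor in the sensing of bacterial sugars, shared 3 peaks in 11.3 kb, and each of the 3 overlapped a start window. Tank, an adaptor gene of the kinase TBK1, had 3 peaks inside the gene, each within 1.4 kb of a start. Collagen genes gave 3 of 42 at chains (7.14%; Col24a1, Col4a2 and Col5a3), or 12% of the 25 with a peak. The shares over all autosomal protein-coding genes were 1.52% and 6.32%.

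Chromosome X, which the rule left out, had 1 chain of 3 peaks over 21.1 kb, or 2.22% of its 135 peaks. On contigs without a chromosome position there were 6 peaks, 3 of them on 1 contig.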
